A study of Mus musculus with 8 samples.

Results

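Genes of the cell cycle and of DNA replication were examined in the livers of male C57BL6 mice with and without hepatocyte expression of C2-AKT, a modified form of the insulin-responsive protein kinase AKT. The set holds 36 genes named by symbol, all found in the deposited table of 45777 genes, and 32 of them had enough reads to enter the test between genotypes. C2-AKT mice came from a cross of a line carrying C2-AKT at the ROSA26 locus with an Alb-Cre line, in which the albumin promoter switches the construct on in hepatocytes. Control mice carry the genotype label wild type, C2-AKT (-/-), and whether they carried Cre is not stated. Both groups received a high-fat diet from 8 weeks of age for 10 weeks, so no group on a standard diet stands beside them. Polyadenylated liver RNA was sequenced in 4 control and 4 C2-AKT libraries, numbered 2 to 5 in each group as in their titles. The labels do not say whether the libraries of a group are separate animals. The p-values given here take libraries as the units, and rest on library-to-library spread and counting error.

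Most hepatocytes of the adult liver rest outside the cell cycle and enter it after injury or loss of tissue. D-type cyclins with Cdk4 start the passage through the first gap phase, cyclin E with Cdk2 opens DNA synthesis, and cyclins A and B with Cdk1 carry the cell into mitosis. Origins of replication are licensed by loading of the MCM helicase, a ring of the products of Mcm2 to Mcm7, and E2F transcription factors drive the genes of this step. AKT is known to favour entry into the cycle, through cyclin D1 and through the CDK inhibitors p21 (Cdkn1a) and p27 (Cdkn1b).

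Library totals lay between 51.4 and 63.8 M counts (M, 1e6). The summed level of 8 hepatocyte marker genes was 63344 to 90010 CPM (counts scaled to a library of 1e6 counts). The noncoding RNA of the ROSA26 locus, Gt(ROSA)26Sor, stood at 4.73 to 7.96 CPM among control and 0 to 0.693 CPM among C2-AKT libraries, with no overlap between the groups. Akt1, the endogenous gene, had a mean of 41.4 ± 7.43 CPM among control and of 42.7 ± 10.1 CPM among C2-AKT libraries (SD, n = 4 each). C2-AKT replicate 5 holds pancreatic RNA: 10 acinar cell markers summed to 93448 CPM of all counts there, against at most 28 CPM in the other libraries. Control replicate 5 and C2-AKT replicate 2 have titles with no ending, C2-AKT replicate 5 ends in _2 and the other 5 in _1, and what the endings stand for is not stated.

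None of the 32 members tested differed between C2-AKT and control livers past an adjusted p of 0.05, while 4 of 15686 genes did (0.0255%). The other 4 members had too few reads to enter the test and could not be called. The test was edgeR's quasi-likelihood test with Benjamini-Hochberg adjustment over all genes tested, and the smallest adjusted p among the members was 0.832. The same test did not call Gt(ROSA)26Sor, whose groups did not overlap (log2 fold change -3.90, edgeR unadjusted p = 0.000132, adjusted p = 0.181). The lack of calls among the members therefore does not show that their levels were unchanged. At an unadjusted p below 0.05, 2 members were higher in C2-AKT livers (2.46% of all genes tested were) and 1 was lower (2.67%). DESeq2's Wald test also called 0 members (0.23% of all genes given a p-value), with 3 at an unadjusted p below 0.05 (3.79%). Of the 36 members in that fit 6 had no adjusted p, so they could not be called. The same counts, 0 and 3, came from limma-voom (0.0191% and 5.18% of all genes). The median log2 fold change of the 32 members was 0.16, beside -0.01 over all genes tested, with 21 members at a higher and 11 at a lower mean (48.1% of all genes tested were higher). Without C2-AKT replicate 5, 33 members were tested, 0 were called (0.0188% of all genes), the median was 0.05 and Ccne2 alone had an unadjusted p below 0.05 (2.16% of all genes were so in the higher direction). Bulk liver RNA cannot tell a change in the number of cycling cells from a change in these transcripts per cell.

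**Figure D1:**
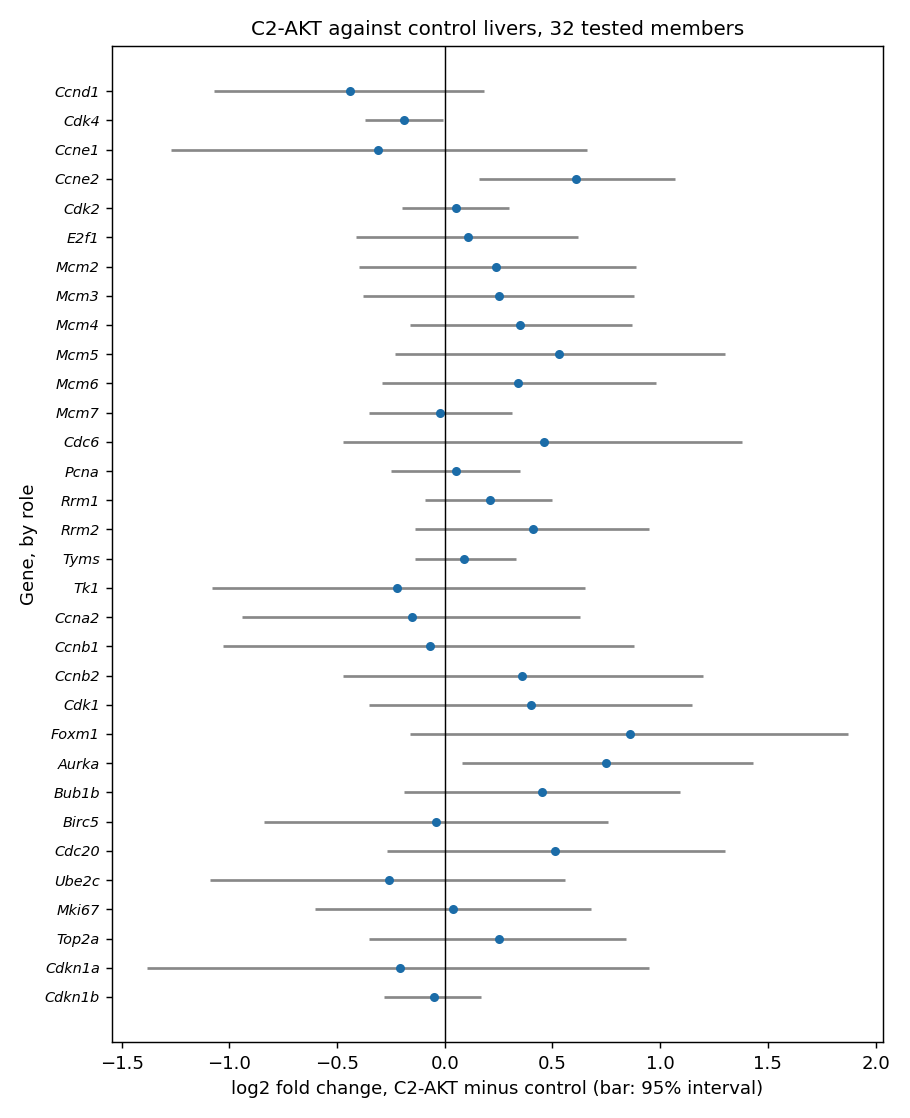
Log2 fold change of each of the 32 tested members, C2-AKT minus control (x axis), with its 95% interval from edgeR, grouped by role (y axis). The intervals of Cdk4, Ccne2 and Aurka leave out 0, and 0 members passed after adjustment over all genes.

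The members differed widely in level. On the length-scaled TPM scale (transcripts scaled to gene length and library), the G1 kinase gene Cdk4 had a median of 36.8 over the 8 libraries, the cyclin D1 gene Ccnd1 34 and the replication clamp gene Pcna 22.7. Mcm7, Cdkn1b and Tk1 followed at 8.86, 8.49 and 7.73 TPM, and the ranges of these 3 genes overlapped. The other MCM genes, Rrm1, Rrm2, Tyms, Cdk2, Cdkn1a and E2f1 had medians between 1.86 and 5.05 TPM. The other 19 members, Ccne1, Ccne2, Cdc6 and the mitotic genes, had medians of 0.808 TPM or less. Mki67, which encodes the Ki-67 protein of cycling cells, had a median of 0.296 TPM and the DNA topoisomerase gene Top2a 0.371 TPM, and the checkpoint kinase gene Bub1 was lowest at 0.0305 TPM.

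**Figure D2:**
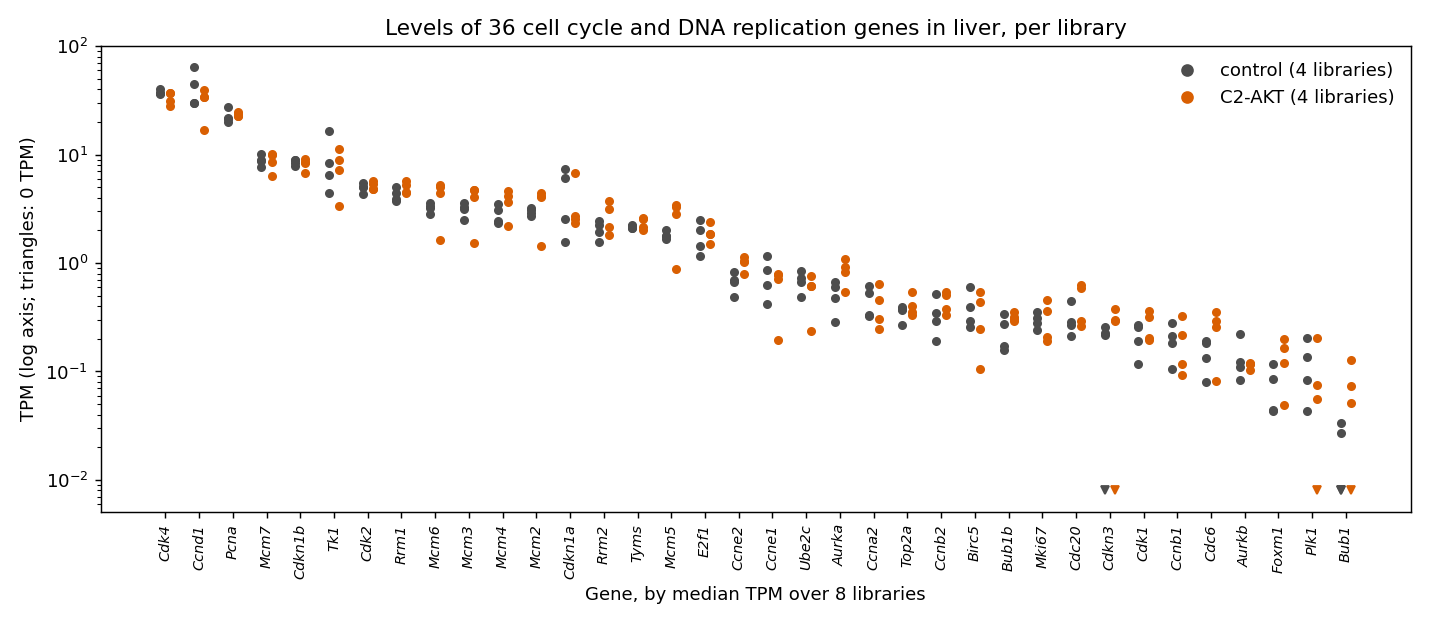
TPM of each of the 36 members in each library (y axis, log scale), with genes ordered by their median over 8 libraries (x axis). Control libraries are grey and C2-AKT libraries orange, and triangles mark 0 TPM. Cdk4, Ccnd1 and Pcna had medians of 22.7 TPM or more, and Bub1, Plk1 and Cdkn3 had libraries at 0.

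Ccnd1 (RefSeq coordinates here and below, GRCm38.p6 chr7:144929931-144939831), whose product pairs with Cdk4 in the first gap phase, had CPM values of 141, 98, 65.7 and 72.3 in control replicates 2 to 5 and of 39.6, 71.8, 78.7 and 87.2 in C2-AKT replicates 2 to 5 (CPM of single genes, here and elsewhere, after TMM scaling of the totals over the genes tested). Control replicate 2 was highest, C2-AKT replicate 2 was lowest, and the rest of the groups overlapped. Its log2 fold change was -0.44 ± 0.28 (SE, n = 4 per group), with a 95% interval from -1.07 to 0.18. Cdk4 (chr10:127063535-127067288) stood at 29.3, 30.2, 33.1 and 33.4 CPM among control and 27.2, 28.8, 27.5 and 26.8 CPM among C2-AKT libraries. All 4 C2-AKT values lay below the control values, an arrangement shared by 1.63% of all genes tested. The difference was small, at -0.19 ± 0.08 on the log2 scale (edgeR unadjusted p = 0.0396, adjusted p = 0.954). Exons of Cdk4 overlap those of Tspan31 on the opposite strand, which held 12743 to 19692 counts per library, and since the strand used in counting is not given, reads of the 2 genes cannot be told apart.

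The cyclin E genes are Ccne1 and Ccne2. Ccne2 (chr4:11190433-11204779) stood at 0.865, 1.05, 1.39 and 1.36 CPM in control replicates 2 to 5 and at 1.92, 1.94, 1.66 and 1.64 CPM in C2-AKT replicates 2 to 5. Every C2-AKT library lay above every control library, as for 1.35% of all genes tested. Its log2 fold change of 0.61 ± 0.20 (95% interval 0.16 to 1.07) had the smallest unadjusted p of the set, 0.0134, with an edgeR adjusted p of 0.832. The gene had 46 to 110 counts per library, and its exons overlap those of Ints8 on the opposite strand, with 1055 to 1434 counts. Ccne1 ranged from 0.518 to 1.32 CPM among control and from 0.242 to 1.06 CPM in C2-AKT libraries, with the lowest value again in C2-AKT replicate 2 (log2 fold change -0.31 ± 0.43). Cdk2, the kinase partner of cyclin E, was steadier, with 6.93 ± 0.687 CPM among control and 7.19 ± 0.429 CPM among C2-AKT libraries (SD, n = 4 each). The log2 fold change of E2f1, an activator of DNA synthesis genes, was 0.11 ± 0.23, and its C2-AKT values of 2.55 to 3.65 CPM lay within the control range.

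Several genes of the MCM helicase were split inside the C2-AKT group. Mcm5 stood at 4.04, 3.55, 3.53 and 3.61 CPM in control replicates 2 to 5 and at 1.86, 6.35, 5.19 and 7.96 CPM in C2-AKT replicates 2 to 5. C2-AKT replicate 2 was the lowest of all 8 libraries, and the other 3 C2-AKT libraries were above every control library. Mcm2 (5.57, 5.27, 6.03 and 6.83 CPM among control; 3, 8.3, 7.45 and 9.33 CPM in C2-AKT) was arranged in the same way. So were Mcm3, with 4.8 to 6.23 CPM among control and 2.87, 7.93, 7.42 and 8.33 CPM among C2-AKT libraries, and Mcm6, with 5.02 to 6.89 CPM among control and 3.33, 9.13, 8.62 and 9.83 CPM among C2-AKT libraries. This arrangement, singled out after its values were seen, was met by 4 of 32 members and by 101 of all 15686 genes tested (0.644%). On CPM of all counts and on TPM Mcm4 joined it, making 5 members.

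The promoters of these 4 genes are printed because the genes were low in the same library and high in the same others. Each run is 300 bases from RefSeq on GRCm38.p6, from 250 bases before to 50 after the annotated start, read along the gene's strand, and capitals mark E2F-type letters (TTCCCGC or TTGGCGC, on either strand).
Mcm2, chr6:88898731-88899030, minus strand: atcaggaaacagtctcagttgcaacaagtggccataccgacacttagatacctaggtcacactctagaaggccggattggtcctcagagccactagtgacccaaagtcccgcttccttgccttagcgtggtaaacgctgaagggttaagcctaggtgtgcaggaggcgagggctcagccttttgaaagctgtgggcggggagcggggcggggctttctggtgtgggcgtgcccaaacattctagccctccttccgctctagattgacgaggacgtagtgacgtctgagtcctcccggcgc
Mcm3, chr1:20820263-20820562, minus strand: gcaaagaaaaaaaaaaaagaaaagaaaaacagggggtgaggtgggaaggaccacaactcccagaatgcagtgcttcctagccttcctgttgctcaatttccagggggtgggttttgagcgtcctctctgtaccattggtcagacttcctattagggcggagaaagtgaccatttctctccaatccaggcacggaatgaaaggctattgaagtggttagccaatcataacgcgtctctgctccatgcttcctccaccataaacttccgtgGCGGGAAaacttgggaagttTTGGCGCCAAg
Mcm5, chr8:75109259-75109558, plus strand: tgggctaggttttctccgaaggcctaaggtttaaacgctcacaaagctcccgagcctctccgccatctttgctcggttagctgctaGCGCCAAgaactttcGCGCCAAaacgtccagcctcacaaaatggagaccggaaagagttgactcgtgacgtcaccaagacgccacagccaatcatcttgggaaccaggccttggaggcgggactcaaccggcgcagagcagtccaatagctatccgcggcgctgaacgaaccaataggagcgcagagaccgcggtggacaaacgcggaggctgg
Mcm6, chr1:128359656-128359955, minus strand: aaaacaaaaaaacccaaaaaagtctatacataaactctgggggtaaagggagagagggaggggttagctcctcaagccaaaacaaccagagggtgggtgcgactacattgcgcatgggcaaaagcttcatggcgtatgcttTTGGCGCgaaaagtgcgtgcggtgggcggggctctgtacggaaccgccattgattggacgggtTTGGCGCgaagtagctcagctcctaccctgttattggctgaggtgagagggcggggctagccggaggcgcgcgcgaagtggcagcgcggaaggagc
Mcm3 holds 3 matches, all after the start, and the last 2 overlap. Mcm5 and Mcm6 hold 2 each, all before the start, and Mcm2 holds 0 in this window. Of 32 promoters found for 30 of the members, 11 held an E2F-type match (34.4%), against 2236 of 32851 promoters in the table (6.81%). Among the 8 promoters of licensing and clamp genes, which come from 7 genes, 6 held one. Both promoters of Mcm7, which did not show the arrangement, are among the 6, and no promoter was found for Mcm4. The cell cycle genes homology region (TTTGAA or TTTAAA, either strand) occurred in 18 of the 32 (56.2%) and in 27.6% of all promoters, and in 6 of the 7 promoters of mitotic kinase, checkpoint and exit genes. A CCAAT box (either strand, sharing the letters CCAA with one form of the E2F-type match) was found in 23 of the 32 (71.9%) against 37.4%. A match is a string of letters and was not tested as a bound site.

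The log2 fold changes of the MCM genes with all 8 libraries were small against their errors: 0.24 ± 0.29 for Mcm2, 0.25 ± 0.28 for Mcm3, 0.35 ± 0.23 for Mcm4, 0.53 ± 0.34 for Mcm5, 0.34 ± 0.29 for Mcm6 and -0.02 ± 0.15 for Mcm7. The edgeR adjusted p was 1, after rounding, for each. With C2-AKT replicate 2 left out, the log2 fold change of Mcm5 was 0.82 ± 0.16 (95% interval 0.45 to 1.19, unadjusted p = 0.000717), yet its edgeR adjusted p of 0.23 did not pass. In that fit 9 of 33 members had an unadjusted p below 0.05, all higher in C2-AKT livers, where 3.35% of all genes tested did, and 0 were called (0.107% of all genes). These 9 were Mcm2 to Mcm6, Ccne2, Rrm2, Foxm1 and Aurka. The MCM arrangement was singled out because C2-AKT replicate 2 was low. Small p-values of MCM genes without that library follow from this choice and are no separate evidence. With C2-AKT replicate 5 left out, the library with pancreatic RNA and, on that scale, the highest Mcm2 to Mcm6, the log2 fold change was 0.28 ± 0.34 for Mcm5 and 0.21 ± 0.30 for Mcm6. Among libraries whose titles end in _1, 3 control and 2 C2-AKT, it was 0.64 ± 0.15 for Mcm5 (edgeR adjusted p = 0.356). That fit leaves out C2-AKT replicate 2 as well. C2-AKT replicate 2 shares its lack of a title ending with control replicate 5, in which Mcm2, Mcm4, Mcm6 and Mcm7 were the highest of the control libraries, Mcm3 the lowest and Mcm5 between the others.

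**Figure D3:**
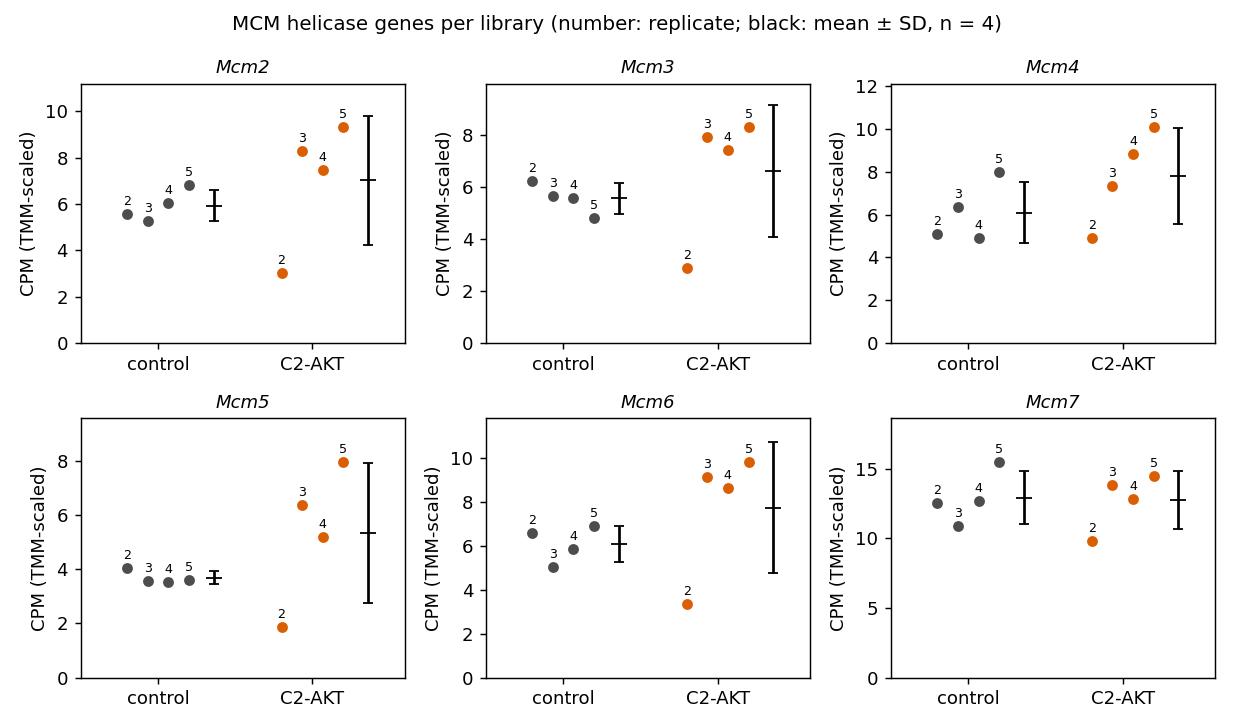
CPM after TMM scaling (y axis) of the 6 MCM helicase genes in control (grey) and C2-AKT (orange) libraries, with the replicate number above each point and the mean ± SD of 4 libraries in black. C2-AKT replicate 2 lies lowest in all 6 panels, and for Mcm2, Mcm3, Mcm5 and Mcm6 the other C2-AKT libraries lie above all control libraries.

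Other members of the replication step followed this in part. Cdc6, which loads the helicase, stood at 0.242 CPM in C2-AKT replicate 2 and at 0.678, 0.709 and 0.757 CPM in replicates 3 to 5, against 0.226 to 0.576 CPM in control libraries. It had only 12 to 47 counts per library (log2 fold change 0.46 ± 0.42). Pcna stood at 14.4 to 21.8 CPM among control and 16.5 to 19.2 CPM among C2-AKT libraries, with no low value in C2-AKT replicate 2 (17.7 CPM). Over all 32 tested members C2-AKT replicate 2 was the lowest library for 12 (37.5%), where it was lowest for 13.9% of all genes tested. C2-AKT replicate 5 was the highest for 14 (43.8%), against 12.3%. That second count moved with the scale. On CPM of all counts C2-AKT replicate 5 was highest for 3 members (9.38%, and 4.55% of all genes tested) and on TPM for 4 (12.5%, and 4.44%). The totals of both these scales include the pancreatic reads of that library. It was the lowest library there for 37.6% (CPM of all counts) and 35.9% (TPM) of all genes tested, against 14.3% after TMM scaling. C2-AKT replicate 2 was lowest for 13 members (40.6%) on either scale, beside 13.7% of all genes tested on CPM of all counts and 14.7% on TPM. Summed levels of 11 cell type marker lists did not place C2-AKT replicate 2 lowest or highest in any list. Its hepatocyte sum of 87303 CPM of all counts lay above the control range of 64738 to 84815 CPM. Its neutrophil sum of 1.45 CPM lay below that of 1.57 to 3.63 CPM. Neither set it apart: the hepatocyte sum of C2-AKT replicate 3 was 90010 CPM, and the neutrophil sums of C2-AKT replicates 3 and 4 were 1.23 and 1.24 CPM. The T and NK cell sum of C2-AKT replicate 2 (3.11 CPM) and its macrophage sum (284 CPM) lay within the control ranges of 1.56 to 4.11 and 270 to 363 CPM. The B and plasma cell markers summed to 3.39, 3.25, 2.84 and 3.65 CPM in C2-AKT replicates 2 to 5, against 2.04 to 3.13 CPM for control, so 3 of the C2-AKT libraries were above every control library. The part of these cells and of the pancreatic RNA in the members' levels was not tested.

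**Figure D4:**
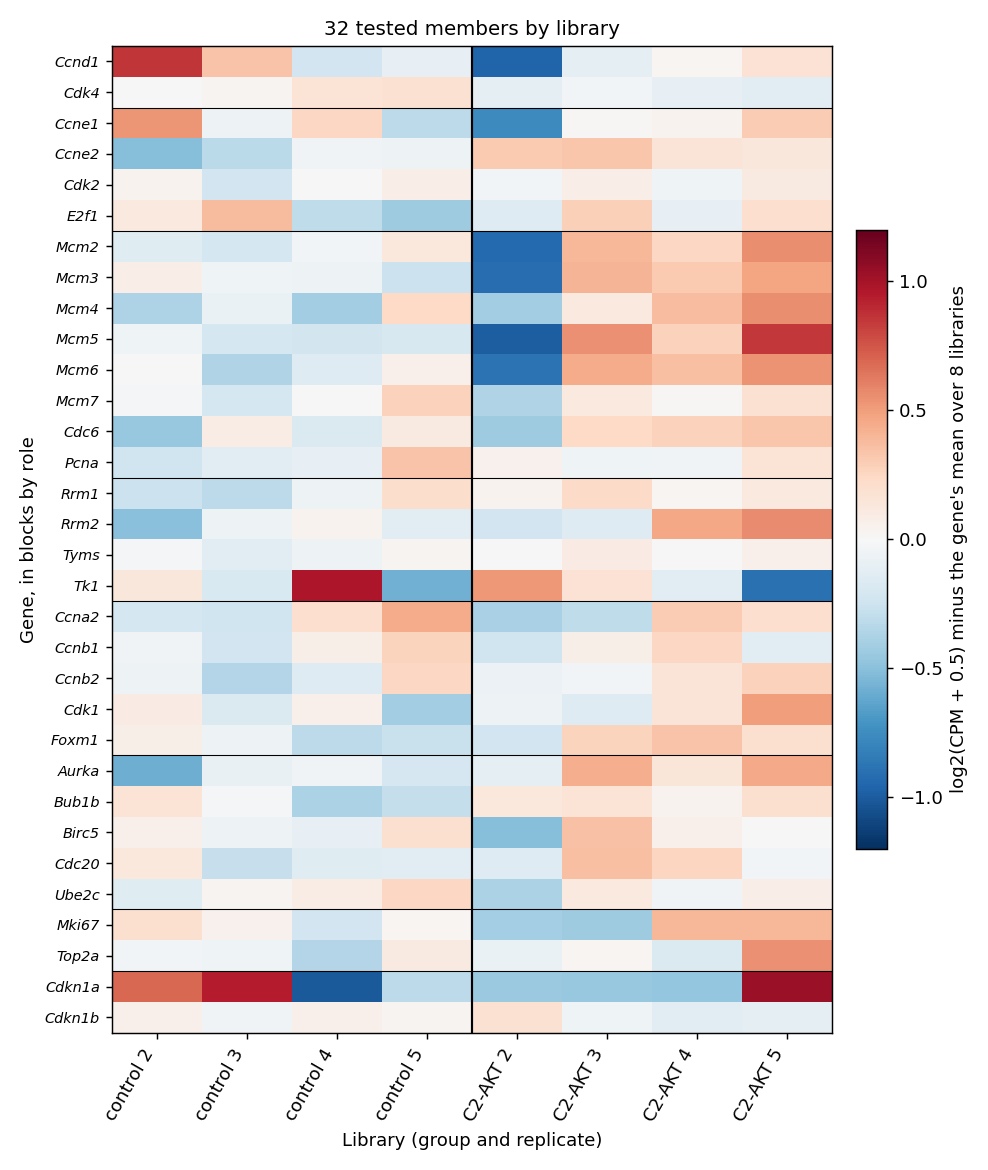
Level of each of the 32 tested members (rows, in blocks by role) in each library (columns), as log2(CPM + 0.5) minus the gene's mean over 8 libraries. Mcm2, Mcm3, Mcm5 and Mcm6 are below their mean in C2-AKT replicate 2 and above it in C2-AKT replicates 3 to 5, while Cdkn1a is above its mean in control replicates 2 and 3 and C2-AKT replicate 5.

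Genes of nucleotide supply showed no called difference. Rrm1 and Rrm2, the subunits of ribonucleotide reductase, had log2 fold changes of 0.21 ± 0.13 and 0.41 ± 0.24. Rrm2 stood at 1.96 to 3.07 CPM among control and at 2.46, 2.62, 4.28 and 4.63 CPM in C2-AKT replicates 2 to 5, so 2 C2-AKT libraries were within the control range and 2 above it. Tyms, the thymidylate synthase gene, was among the steadiest members, at 4.92 ± 0.257 CPM among control and 5.25 ± 0.179 CPM among C2-AKT libraries. Tk1, the salvage enzyme thymidine kinase, was among the most variable, at 6.17, 4.85, 11.4 and 3.57 CPM among control and 8.23, 6.35, 5.02 and 2.77 CPM among C2-AKT libraries. Its control values had a coefficient of variation of 52.9%, where counting error alone gives 5.18%. Exons of Tk1 overlap those of Afmid on the opposite strand, which held 3059 to 6634 counts, so its level is uncertain. Exons of Ccnd1, Ccna2, Cdk2, Mcm7, Cdc20, Ube2c, Cdkn1a and Plk1 also overlap those of genes on the opposite strand. Elovl1, which overlaps Cdc20, held 1072 to 1519 counts, where Cdc20 had at most 37. Exons of Foxm1 overlap those of Tex52 (0 counts) and Gm44596 on the same strand.

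Mitotic genes were measured at few counts. Mki67 stood at 2.07, 1.82, 1.41 and 1.78 CPM among control and at 1.19, 1.17, 2.46 and 2.45 CPM among C2-AKT libraries, so that 2 C2-AKT libraries were below and 2 above all control libraries. Its log2 fold change of 0.04 ± 0.29 had a 95% interval from -0.60 to 0.68. Top2a, which untangles chromosomes before they separate, stood at 0.807 to 1.3 CPM among control and 0.98 to 1.93 CPM among C2-AKT libraries. The cyclin genes Ccna2, Ccnb1 and Ccnb2 and the kinase gene Cdk1 had 8 to 76 counts per library and log2 fold changes of -0.15 ± 0.35, -0.07 ± 0.43, 0.36 ± 0.38 and 0.40 ± 0.34. The 95% interval for Ccnb1 ran from -1.03 to 0.88, and the groups of all 4 genes overlapped. The spread of their control libraries, a coefficient of variation of 30.6% (Cdk1) to 45.5% (Ccnb2), was above that of counting error alone, 14% (Ccna2) to 25.4% (Ccnb1).

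Aurka, a kinase of the spindle poles, stood at 0.357, 0.709, 0.744 and 0.614 CPM among control and at 0.689, 1.24, 0.92 and 1.26 CPM among C2-AKT libraries. C2-AKT replicate 2 lay within the control range and the other C2-AKT libraries above it. C2-AKT replicates 3 to 5 lay above every control library for 8 of 32 tested members (25%) and for 3.72% of all genes tested. Of these 8 members, 5 are licensing and clamp genes. Replicates 3 to 5 were grouped after C2-AKT replicate 2 was seen to be low, so this share is no separate evidence. The log2 fold change of Aurka was 0.75 ± 0.30 (edgeR unadjusted p = 0.0328, adjusted p = 0.928). Foxm1, an activator of mitotic genes, had the largest log2 fold change of the members tested, 0.86 ± 0.45, from 7 to 31 counts per library, with 0.111 to 0.301 CPM among control and 0.149, 0.414, 0.467 and 0.368 CPM among C2-AKT libraries (edgeR adjusted p = 0.995). It lies on chromosome 6, 15.3 Mb from Gt(ROSA)26Sor, as do Cdkn1b at 21.9 Mb and Mcm2 at 24.2 Mb. The checkpoint kinase gene Bub1b, the anaphase activator Cdc20, the ubiquitin-conjugating enzyme gene Ube2c and the survivin gene Birc5 had log2 fold changes between -0.26 (Ube2c) and 0.51 (Cdc20), with overlapping groups.

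The 4 members below the count filter were the kinase genes Plk1, Aurkb and Bub1 and the phosphatase gene Cdkn3, and no fold change is given for them. Bub1 had 0, 4, 0 and 5 counts in control replicates 2 to 5 and 8, 10, 21 and 0 counts in C2-AKT replicates 2 to 5. It was absent from 2 control libraries and from the C2-AKT library with pancreatic RNA. A count of 0 there allows up to 0.0564, 0.0475 and 0.0649 CPM (3 counts, counting error only). Plk1 had 0 to 16 counts, Aurkb 6 to 15 and Cdkn3 0 to 11, with overlapping groups.

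The CDK inhibitor genes differed in how steady they were. Cdkn1a (chr17:29090979-29100722), which encodes p21, stood at 6.7, 8.05, 1.72 and 3.09 CPM in control replicates 2 to 5 and at 2.78, 2.75, 2.73 and 8.66 CPM in C2-AKT replicates 2 to 5. A pair of control libraries and C2-AKT replicate 5 were high, and the other 5 libraries were at or below 3.09 CPM. With all libraries its log2 fold change was -0.21 ± 0.52, and without C2-AKT replicate 5 it was -0.83 ± 0.45 (edgeR unadjusted p = 0.102, adjusted p = 1 after rounding). Cdkn1b, which encodes p27, stood at 12.1 ± 0.419 CPM among control and 11.6 ± 1.29 CPM among C2-AKT libraries. Its control coefficient of variation of 3.47% was no larger than the 3.87% that counting error gives, and the 95% interval of its log2 fold change ran from -0.28 to 0.17.

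Of 124 other cell cycle genes in 5 lists, 117 were tested and 0 were called by edgeR, with 5 at an unadjusted p below 0.05 (5.13% of all genes tested were). The list of other replication genes had 27 higher and 12 lower means among 39 tested (median log2 fold change 0.07). Pole, the DNA polymerase epsilon gene, was at 1.43 CPM in C2-AKT replicate 2 and at 3.3, 2.74 and 3.57 CPM in replicates 3 to 5, against 1.58 to 2.3 CPM in control. The kinase gene Cdc7 had a log2 fold change of 0.71 ± 0.34. Other mitotic genes had 17 higher and 17 lower means, and Wee1, an inhibitor of Cdk1, had a log2 fold change of 0.45 ± 0.17 (edgeR unadjusted p = 0.0239, adjusted p = 0.893), with 0.82 ± 0.38 for Nusap1 and 0.34 ± 0.18 for Smc2. Other G1 regulators had a median of -0.01 and 0 genes at an unadjusted p below 0.05 among 14 tested, with Ccnd2 at 0.28, E2f3 at -0.23 and Cdkn2d at -0.46. Among 10 E2F, DREAM and related genes, which are not all repressors, also with 0, E2f7 was at -0.52, Mybl2 at -0.43 and Lin54 at 0.15.

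The list of p53 growth-arrest targets holds genes that respond beside Cdkn1a to DNA damage. It also holds the p53 gene Trp53 itself, so its genes are not all targets of p53. The list had 13 lower and 7 higher means among 20 tested, and 3 lower at an edgeR unadjusted p below 0.05 (2.67% of all genes tested). Gadd45a, a growth-arrest gene, stood at 5.4, 5.38, 6.2 and 6.29 CPM among control and at 2.76, 1.88, 3.05 and 2.49 CPM among C2-AKT libraries, with no overlap (log2 fold change -1.19 ± 0.16, edgeR adjusted p = 0.0754). DESeq2 called Gadd45a and no other gene of the 5 lists. Bax, a pro-apoptotic member of the BCL2 family, stood at 11.6 to 13 CPM among control and 9.54 to 11.1 CPM among C2-AKT libraries, again with no overlap (-0.24 ± 0.09, edgeR adjusted p = 0.893). Lower values without overlap were found for 2 of the 20 tested genes of the list and for 1.63% of all genes tested. Gdf15, a secreted stress factor, had a log2 fold change of -1.06 ± 0.47 and overlapping groups. Cdkn1a did not share the arrangement of Gadd45a and Bax, since its highest value was in C2-AKT replicate 5.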

How the data were processed

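Polyadenylated liver RNA was measured in 8 libraries. The authors deposited 1 table with whole-number read counts, FPKM and TPM per gene and library, per the file headers; each value column was matched to its library by title. The submitters' processing notes name StringTie 2.1.3b, HISAT2 2.1.0, bcl2fastq 2.20.0, Trimmomatic and the build GRCm38; how reads were counted, and by which strand, is not given in the sources used. The deposited TPM sum to near 1e6 per library, and the deposited FPKM are scaled to length and library size.

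Counts were filtered with edgeR's filterByExpr (15686 genes left), library totals were taken over these genes and scaled by TMM, and counts were tested with edgeR 4.0.16 (quasi-likelihood, two-sided, Benjamini-Hochberg, threshold 0.05; R 4.3.3). SE is the log2 fold change over the square root of F. The fit was tested on simulated data. DESeq2 1.42.0 and limma 3.58.1 (voom, and log2(FPKM + 1) and log2(FPKM + 0.1) at a mean FPKM of at least 0.1) served as alternatives. Replicate numbers were not used to pair libraries. The members and lists were chosen with earlier results of these data known. All 36 members are named or counted; of each other list the 3 genes with the smallest unadjusted p are named, except 1 that is not reported here. Library totals were 51.4 to 63.8 M; intervals include counting error.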

Additional observations from a re-analysis of the deposited data

Results flagged for a closer look

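A library far from the other 3 of its group was found in 5 of 72 sets of member values, where chance alone gives about 1 in 20. The gap to the nearest library, as a share of the group's range, was 0.992 for Cdkn1a in C2-AKT replicate 5 (8.66 CPM, the others 2.73 to 2.78 CPM). It was 0.833 for Mcm3 and 0.846 for Cdc6, both lowest in C2-AKT replicate 2. It was 0.847 for Mcm5 in control replicate 2, where the whole control range was only 3.53 to 4.04 CPM. It was 0.858 for Cdkn3 in control replicate 3, which had 0 counts. Among 22 marker sums 2 stood apart: the acinar cell and the islet markers of C2-AKT replicate 5, each with a share of 1 after rounding. Their part in the levels of the members was not tested; without that library 0 members were called as well.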

How the results depend on the processing

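No member was called under any of 21 alternatives, 1 of which (leaving out both libraries with no title ending) was chosen after seeing the data, and 20 of the 32 tested members had the same sign in every setting in which they could be fitted (Foxm1 in 19 of 22, the others in 21 or 22). Over all genes 4 were called, 56 with DESeq2, 17 among libraries with titles ending in _1, 10 without both libraries with no title ending, and 1 (without control replicate 2) to 17 (without C2-AKT replicate 2) with 1 library left out; 7 were called without C2-AKT replicate 3. DESeq2 called 1 gene of the other cell cycle lists. The members' median log2 fold change of 0.16 was 0.04 on log2(FPKM + 1), 0.07 with the title ending as a term, 0.23 among titles ending in _1, 0.34 without both libraries with no ending, and 0.05 to 0.21 with 1 library left out.

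The log2 fold changes of 12 members changed sign, and the cause was not tested. With a term for title ending, values were -0.01 for Pcna, 0.06 for Tk1, 0.04 for Ccnb1, -0.13 for Mki67 and -0.01 for Top2a. Among titles ending in _1 they were 0.15 for Mcm7, 0.16 for Ccna2, 0.60 for Ccnb1, 0.43 for Birc5 and 0.09 for Ube2c. Without both libraries with no ending they were 0.19 for Mcm7, 0.24 for Ccna2, 0.38 for Ccnb1, 0.32 for Birc5 and 0.12 for Ube2c. With library totals alone they were 0.02 for Mcm7 and 0.01 for Birc5. Mki67 was at -0.03 with limma-voom, -0.0012 on log2(FPKM + 1) and -0.03 on log2(FPKM + 0.1). With 1 library left out the ranges were -0.02 to 0.09 for Cdk2, -0.03 to 0.30 for E2f1, -0.09 to 0.08 for Mcm7, -0.03 to 0.19 for Pcna, -0.46 to 0.20 for Tk1, -0.36 to 0.08 for Ccna2, -0.38 to 0.18 for Ccnb1, -0.30 to 0.21 for Birc5, -0.15 to 0.20 for Mki67, -0.01 to 0.36 for Top2a and -0.83 to 0.14 for Cdkn1a.

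With the replicate block 0 members were called, the median was 0.14, 4 genes of all were called and Mki67 was at -0.03. Same-numbered libraries did not deviate together (r of -0.13, -0.02, 0.07 and -0.06 for numbers 2 to 5). Whether they share more than a number is not stated, and these values cannot settle it. Among the tested members counting error was largest for Foxm1, at 30.9% of its control mean.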
